A study of Mus musculus with 21 samples.

Results

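In 6 murine pancreatic ductal adenocarcinoma (PDAC) cell lines, 23 genes were higher under the MEK inhibitor trametinib in every line and lay near the parental level again after drug withdrawal. They were picked out of the 34478 genes of the expression table on log2 values after adding 1. A gene was taken when its resistant sample was at least 1 (2-fold) above the parental sample of the same line in all 6 lines, with a mean resistant value of at least 50 normalized counts, and when the P12 sample lay within 1 of the parental sample in at least 5 of the 6 lines. The gain condition and the level condition together were met by 265 genes. Of these, 23 met the P12 condition, 73 kept a P12 value at least 1 above parental in at least 5 lines, and 169 lay between. Since the parental, resistant and P12 values chose the genes, differences of the 23 among these 3 states are given as a description and carry no test. Genes outside the 23 were also tested between these states. The P5 samples played no part in the choice, and the tests of the 23 concern them. The states they are tested against were used by the rule, however, and P5 samples resemble the P12 samples of their line, so a drop from resistant to P5 was largely built in.

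The cells were primary lines numbered #3, #4, #6, #7, #9 and #10, grown from tumors of mice in which Cre from the Ptf1a locus of the pancreatic lineage acts on engineered alleles, among them Trp53loxP/loxP, which it removes. All 4 states carried the same alleles. Parental cells had not met the drug, resistant cells grew in trametinib at 100 times their initial IC50, and P5 and P12 cells were resistant cells kept for 5 and 12 passages without it. Each line gave 1 sample per state (6 parental, 6 resistant, 6 P12, and P5 for #3, #7 and #9 only), so the lines are the replicates, a p-value measures the spread between lines, and for P5 of #7 and #9 one label gives 12 drug-free passages where the sample title gives 5.

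Trametinib blocks the MEK kinases, which activate ERK, and ERK output in turn sets the level of transcription factors such as the FOS family of AP-1. The 23 genes are described by the known role of each, among them a subunit of AP-1, enzymes and a receptor of collagen, proteins of the actin cytoskeleton, and enzymes of sugars and lysosomes. These groupings were made after the genes were known and were not tested. Genes of collagen handling are best known from the stroma of pancreatic tumors, whereas the samples here were cultures of tumor cells.

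Per sample the table added up to 2.86e+07 to 3.71e+07 normalized counts, with an estimated 24.1 to 42.6 M reads behind them, so that 3 reads corresponded to 2.31 to 4.09 normalized counts, which covers counting error only. Of 17 tested genes of ERK output, 12 were called lower and 0 higher in resistant than in parental cells (limma over 19300 genes, adjusted p below 0.01 and log2 fold change beyond 1, which called 2.73% of all genes lower). Their median log2 fold change was -3.19 in resistant and 0.03 in P12 cells against parental cells. Marker levels of cell types moved with the states. The sum of 15 fibroblast and stellate markers, of which 8 also stand in other lists used here, ranged from 131.3 to 25250 normalized counts in parental, from 1929 to 578000 in resistant, from 1227 to 84660 in P5 and from 429 to 154600 in P12 samples. The sum of 10 ductal epithelial markers ranged from 18450 to 296200 in parental, from 1821 to 212400 in resistant, from 3435 to 242600 in P5 and from 4068 to 213500 in P12 samples, and Epcam stayed below 10 in every sample. The leukocyte marker Cd3e and the endothelial marker Emcn were below 10 in every sample, and their lists summed to at most 2912 and 2760. None of the 23 genes is in these marker lists, and the part of the markers in the results below was not tested. In such bulk samples, fewer cells of a type and less RNA per cell cannot be told apart.

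Across the 23 genes, the median difference between the resistant and the parental sample was 1.79 in #3, 1.91 in #4, 2.53 in #6, 2.04 in #7, 1.84 in #9 and 2.70 in #10 on the log2 scale, and over all tested genes it was between -0.03 and 0.02. In P12 the median of the 23 was 0.00 in #3 and 0.51 in #6, with the other lines between. In line #6, 6 of the 23 genes were still more than 1 above parental in P12, against 0 in #3 and #7 and 2 in each of #4, #9 and #10. Of all 19300 tested genes, 4248 were so in #3, 3654 in #4, 3467 in #6, 2594 in #7, 2291 in #9 and 2960 in #10. Line #6 thus did not have the highest count over all genes. The P12 values helped to choose the 23, so these counts are a description. The return was complete by the rule's own measure for 6 genes, Cyp4f39, Metrnl, Cep126, Dtx2, Ostm1 and Pmm1, which lay within 1 of parental in all 6 lines. Another 12 genes stayed more than 1 above parental in 1 line, and 5 dropped more than 1 below it in 1 line.

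**Figure D1:**
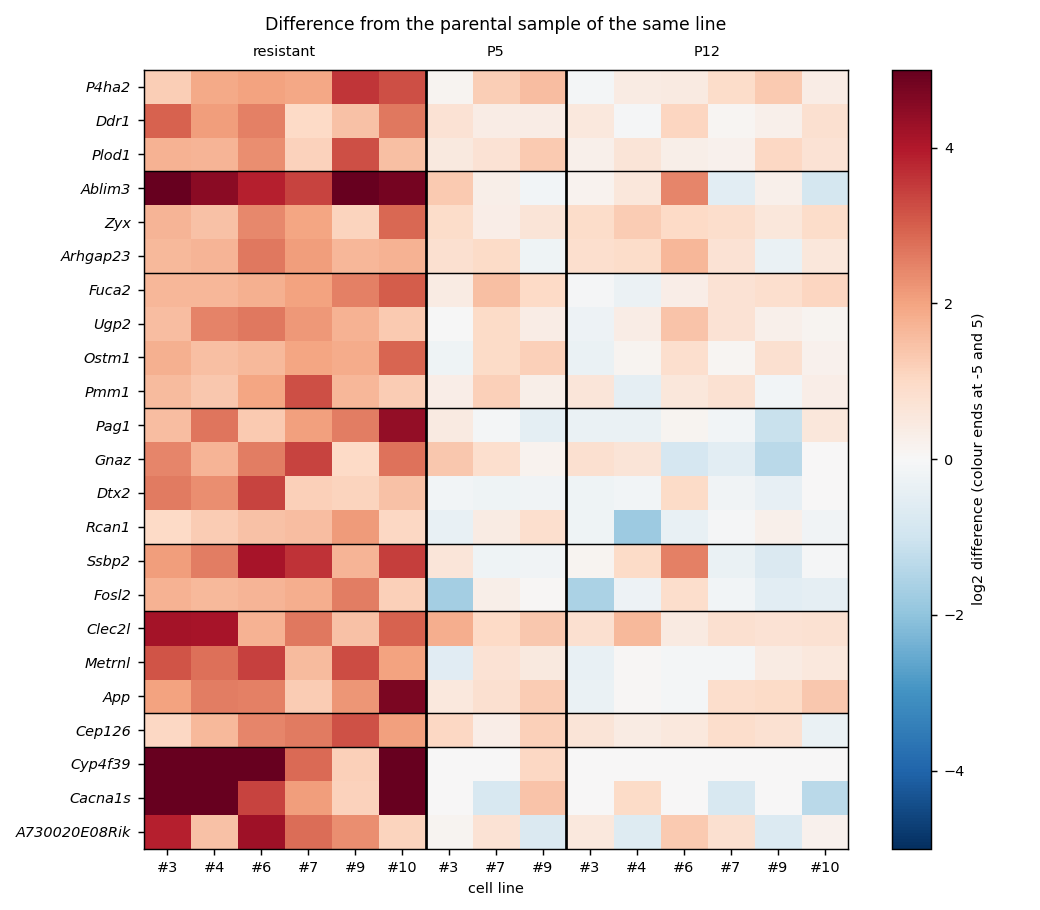
Log2 difference of each resistant, P5 and P12 sample (columns, by cell line) from the parental sample of the same line for the 23 genes (rows, grouped by role), with colours ending at -5 and 5. The 6 resistant columns are red in every row because the rule asked for it, and the P5 and P12 columns are pale but for single entries such as Ablim3 and Ssbp2 in P12 of #6 (2.44 and 2.53) and Fosl2 in P5 of #3 (-1.70).

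Among the regulators, Fosl2 (chr5:32135801-32157842, plus strand), a FOS-family subunit of AP-1, lay between 2169 and 3288 normalized counts in parental samples with a median of 2544. In resistant samples it lay between 5185 and 12718 with a median of 9803, so that the groups did not overlap, and the mean gain on the log2 scale was 1.76 ± 0.44 (SD over n = 6 lines). P5 samples held 683 in #3, 3492 in #7 and 2253 in #9, all below the lowest resistant sample. In line #3 the gene went past the parental level of 2225 in both drug-free samples, with 742 in P12, whereas P12 of #6 still held 5563. The P5 samples were lower than the resistant samples by a log2 fold change of -2.33 ± 0.49 (SE, 3 against 6 samples; limma, adjusted p = 0.0171), which passed the threshold of 0.01 only with the cell line as a block (adjusted p = 0.00932; 0.00932 to 0.24 over 18 alternatives).

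The other FOS genes moved the other way, and they are not among the 23. Fosl1, a classical target of ERK, fell in resistant cells by 5.88 on the log2 scale (SE 0.97, limma, adjusted p = 0.000601). It ranged from 1247 to 3231 in parental samples and from 2.07 to 47.8 in the resistant samples of 5 lines, but was 1659 in the resistant sample of #7, above its parental value of 1247. Fos fell by 2.44 (SE 0.52, adjusted p = 0.00408) and Fosb by 1.96 (SE 0.42, adjusted p = 0.004), both lower in 6 of 6 lines. Of the 18 AP-1 subunits tested besides Fosl2, 1 was called higher, Atf3, a stress-induced partner (2.48, SE 0.58, adjusted p = 0.00722), and 3 lower, the 3 FOS genes; over all genes 2.57% were called higher and 2.73% lower.

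**Figure D2:**
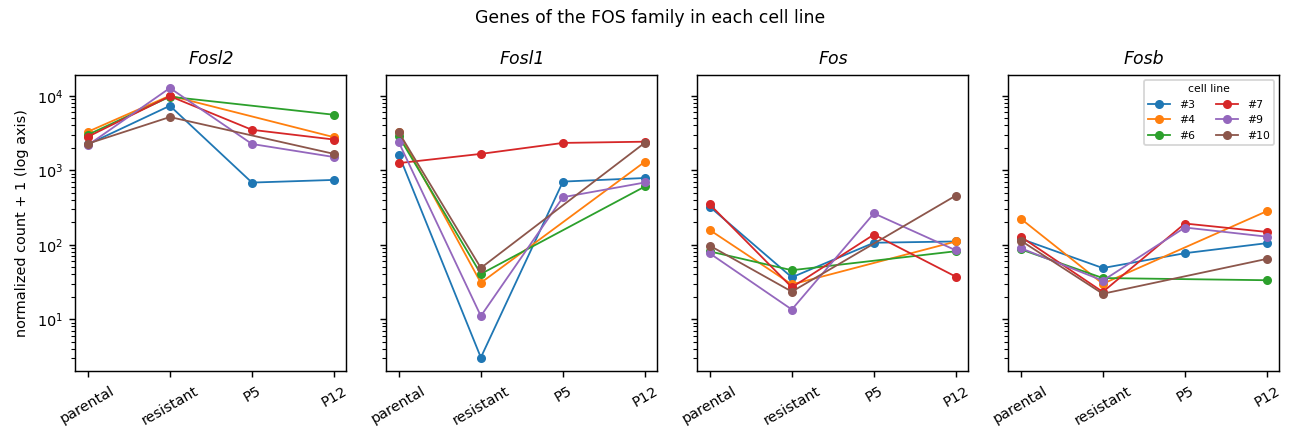
Normalized counts plus 1 (log axis) of Fosl2, Fosl1, Fos and Fosb in parental, resistant, P5 and P12 samples, with 1 coloured line per cell line (lines without P5 run straight to P12). Fosl2 peaks in the resistant samples of all 6 lines, while Fosl1 dips there in 5 lines and not in #7.

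Ssbp2 (chr13:91460283-91703429, plus strand), a single-stranded DNA binding cofactor of LIM-domain transcription complexes, lay between 172.2 and 756.3 in parental samples (median 212.7) and between 891.6 and 3072 in resistant samples (median 2240). The parental sample of #9 stood apart at 756.3, and the other 5 parental samples lay between 172.2 and 268.7. P5 samples held 314.0 in #3, 146.3 in #7 and 660.5 in #9. P12 samples lay between 138.0 and 1010, and only that of #6, at 1010, reached the range of the resistant samples. Its relatives Ssbp3 and Ssbp4 had log2 fold changes of 0.79 (adjusted p = 0.177) and -0.77 (adjusted p = 0.279) in resistant against parental cells and were not called.

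Promoter stretches are shown for the 3 genes that hold the AP-1 letters, because Fosl2, an AP-1 subunit, is itself among the 23. RefSeq windows on GRCm38.p6, from 250 bases before to 50 after a start, were found for 19 of the 23 genes, and Ablim3, Pag1, Gnaz and Arhgap23 had none. The letters TGANTCA, searched on both strands, were present in 3 of the 19 (15.8%), Zyx, Ddr1 and Rcan1, in 8.97% of all 27025 genes with a window and in 7.04% of the tested genes with one. Of 28 genes lost under the drug and back in P12, 4 (14.3%) held them. The 250 bases before the start are printed on the gene's own strand, 5′ to 3′, with the match in capitals.
Zyx, chr6:42349578-42349827, plus strand, match at -121: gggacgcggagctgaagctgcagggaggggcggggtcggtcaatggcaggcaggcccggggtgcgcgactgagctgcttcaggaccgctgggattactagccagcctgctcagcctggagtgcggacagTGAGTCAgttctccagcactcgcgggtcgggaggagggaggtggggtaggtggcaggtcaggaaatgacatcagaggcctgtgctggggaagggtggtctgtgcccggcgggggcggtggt
Ddr1, chr17:35702045-35702294, minus strand, match at -151: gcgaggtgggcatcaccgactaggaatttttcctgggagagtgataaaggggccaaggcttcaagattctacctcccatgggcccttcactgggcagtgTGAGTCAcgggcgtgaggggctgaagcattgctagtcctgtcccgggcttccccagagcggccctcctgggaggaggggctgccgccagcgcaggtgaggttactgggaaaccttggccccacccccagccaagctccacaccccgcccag
Rcan1, chr16:92400079-92400328, minus strand, match at -110: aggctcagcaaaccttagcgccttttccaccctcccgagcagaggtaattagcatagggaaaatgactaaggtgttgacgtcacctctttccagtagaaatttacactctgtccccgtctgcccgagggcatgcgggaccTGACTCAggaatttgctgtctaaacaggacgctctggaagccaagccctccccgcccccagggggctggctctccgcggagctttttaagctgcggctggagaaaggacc

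The windows of all 3 genes belong to starts inside the annotated gene, and the table does not separate transcripts. Of the 7 other motifs searched on both strands, the CRE letters TGACGTCA stood in 1 of the 19 genes, Rcan1 at -175 in the same stretch, and in 2.03% of all genes. The E-box CACGTG was found in another window of Rcan1 alone (5.26% against 8.09% of all genes), GTAAACA of FOXO factors in Cep126 (4.05% of all genes), the ISRE-like motif of interferon response genes in Fosl2 (3.99%) and CATTCC of TEAD factors in Cacna1s (16.6%). CTTTGAT of TCF/LEF and CCGGAAGT of ETS factors were in none of the 19 genes, and in 4.29% and 4.31% of all genes. A match is a stretch of letters and no measure of binding.

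In the making and sensing of collagen, 3 genes were among the 23. P4ha2 (chr11:54100095-54131665, plus strand) is the catalytic subunit of a prolyl 4-hydroxylase that stabilizes the collagen triple helix. It lay between 654.8 and 1936 in parental samples (median 1259) and between 2487 and 9717 in resistant samples (median 6887), without overlap. The gain was smallest in #3 (1.22) and largest in #9 (3.59). P5 samples held 1707 in #3, 1550 in #7 and 2355 in #9, all below the resistant range, and the P5 samples of #7 and #9 were still 1.24 and 1.55 above their parental samples. P4hb, the beta subunit it pairs with, had a log2 fold change of 0.96 in resistant cells (SE 0.20, limma, adjusted p = 0.00392), under the fold threshold, and P4ha1, the catalytic subunit of another isoenzyme, had one of 1.04 (adjusted p = 0.0556).

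Plod1 (chr4:147909753-147936767, minus strand), a lysyl hydroxylase that prepares collagen for cross-links, lay between 530.7 and 1346 in parental samples (median 943.0) and between 1913 and 6056 in resistant samples (median 3658). P5 samples held 954.0 in #3, 1438 in #7 and 1330 in #9, below every resistant sample. P12 samples lay between 803.3 and 2082, and that of #4, at 2082, reached the resistant range. Its relative Plod2 rose in resistant cells as well (log2 fold change 2.84, SE 0.63, limma, adjusted p = 0.00541, higher in 6 of 6 lines), yet was not among the 23: its P12 values ranged from 433.1 to 4308 against 403.4 to 1795 in parental samples.

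Ddr1 (chr17:35681567-35704621, minus strand), a receptor tyrosine kinase that binds collagen, lay between 3494 and 9423 in parental samples (median 4782) and between 9715 and 39811 in resistant samples (median 31081). The resistant samples of #7 (10069) and #9 (9715) were just above the highest parental sample, and the other 4 were at 28691 or more. P5 samples held 7149 in #3, 6395 in #7 and 4572 in #9, all below the resistant range, at 0.24, 0.35 and 0.26 of the way from parental to resistant. Of the other 39 tested receptor tyrosine kinases and adaptors, 3 were called higher in resistant cells (Ephb6, Tek and Gab1) and 2 lower (Axl and Fgfr4), where 2.57% and 2.73% of all genes were, and the collagen receptor Ddr2 was not called (4.00, SE 2.08, adjusted p = 0.211).

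No collagen or other matrix gene was among the 23. Of the 64 tested genes of the extracellular matrix list, 11 were called higher in resistant than in parental cells and 1 lower, where 2.57% and 2.73% of all genes were. The median log2 fold change of the list was 1.91, and that of all tested genes -0.005. In P12 the median of this list was still 1.08 above parental cells, while over all tested genes it was 0.03. Col6a1, for example, was called higher in resistant cells (4.64, SE 1.02, adjusted p = 0.00497) and was at 3.26 in P12 (SE 1.02, adjusted p = 0.133). Others of the 11 had P12 means nearer to parental cells. Examples are Adamts1 (4.29 in resistant, 0.26 in P12), Lama2 (3.37 and 0.48) and Hspg2 (2.03 and 0.55), all chosen after their values were seen. A mean can hide the single lines: P12 lay within 1 of parental in only 1 of 6 lines for Adamts1, in 3 for Lama2 and in 5 for Hspg2.

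**Figure D3:**
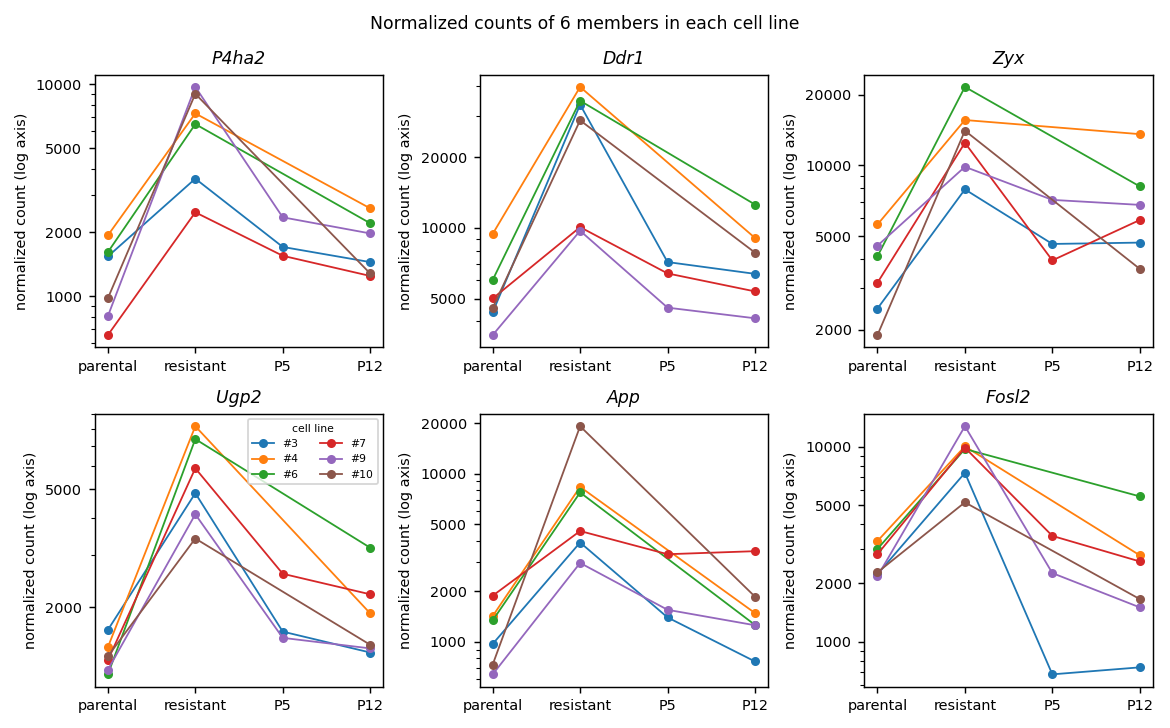
Normalized counts (log axes) of P4ha2, Ddr1, Zyx, Ugp2, App and Fosl2 in parental, resistant, P5 and P12 samples, with 1 coloured line per cell line (lines without P5 run straight to P12). Each gene is highest in the resistant sample of every line, and the drop is nearly complete by P5 for Ugp2 in #3 and #9, but small for App in #7 (4562 to 3321).

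Of the 3 genes of the actin cytoskeleton, Ablim3, an actin-binding LIM protein, had the largest gain of all 23 on log2(value + 1), with a mean of 4.93 ± 1.51 (SD over n = 6 lines). It lay between 5.75 and 155.9 in parental samples (median 64.0) and between 511.6 and 4382 in resistant samples (median 1132). P5 samples held 15.7 in #3, 99.8 in #7 and 10.9 in #9, and P12 samples lay between 6.68 and 267.5, so that no drug-free sample reached the resistant range. Even so, P12 of #6 (267.5) was 2.44 above its parental sample. The log2 fold change of P5 against resistant samples was -5.51 ± 1.09 (SE; limma, adjusted p = 0.0122), which passed the threshold of 0.01 with the block (-4.50, SE 0.74, adjusted p = 0.00596; 0.00596 to 0.359 over 18 alternatives). Its relative Ablim1 was not called (adjusted p = 0.408 in resistant against parental cells).

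Zyx (chr6:42349630-42360213, plus strand) codes for zyxin, which sits at focal adhesions and repairs actin stress fibers. It lay between 1901 and 5611 in parental samples (median 3642) and between 7912 and 21576 in resistant samples (median 13276). P5 samples held 4638 in #3, 3948 in #7 and 7140 in #9, below every resistant sample. Its return was among the least complete: P12 was above parental by 0.58 to 1.28 in all 6 lines, and P12 of #4 (13591) was close to its resistant value of 15606. Arhgap23 (chr11:97415533-97502402, plus strand), a GTPase-activating protein, ranged from 1424 to 2466 in parental and from 4334 to 10697 in resistant samples. It held 2483, 3382 and 1696 in P5 of #3, #7 and #9, again below the resistant range, but 5410 in P12 of #6 and 4656 in P12 of #4, inside it. The relatives of zyxin, Lpp and Trip6, had log2 fold changes of -0.22 and 0.65 in resistant cells and were not called (adjusted p = 0.708 and 0.179).

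Sugar metabolism and lysosomes were represented by 4 genes. Ugp2 (chr11:21321138-21371201, minus strand), which makes UDP-glucose for glycogen and glycans, had the lowest adjusted p of the 23 for a drop in P5. It lay between 1187 and 1678 in parental samples (median 1346) and between 3414 and 8174 in resistant samples (median 5375). P5 samples held 1655 in #3, 2595 in #7 and 1577 in #9 and so lay below every resistant sample, in #3 at the parental level of 1678. The log2 fold change of P5 against resistant samples was -1.51 ± 0.28 (SE, lower in 3 of 3 lines; limma, adjusted p = 0.00857), and it was the only one of the 23 to pass the threshold of 0.01. Leaving out any line but #10 ended this call (adjusted p up to 0.0811), as did the fit of lines #3, #7 and #9 alone (0.13), and over 18 alternatives it ran from 0.00638 to 0.328.

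Pmm1 (chr15:81951108-81960930, minus strand), a phosphomannomutase that feeds mannose into glycosylation, ranged from 209.2 to 578.3 in parental and from 885.7 to 2213 in resistant samples, and held 370.1, 479.4 and 688.6 in P5 of #3, #7 and #9. Its largest gain was in #7 (3.23), and its relative Pmm2 did not differ by the test (0.09, SE 0.19, adjusted p = 0.804). Fuca2 (chr10:13499540-13519035, plus strand), an alpha-fucosidase, ranged from 424.0 to 774.3 in parental and from 1670 to 3425 in resistant samples. P5 of #7 kept 2037, inside the resistant range, whereas P5 of #3 and #9 held 708.5 and 1004. Ostm1 (chr10:42583822-42702459, plus strand), the partner of the lysosomal chloride transporter CLC-7, ranged from 449.4 to 935.3 in parental and from 2065 to 3414 in resistant samples and held 592.8, 1017 and 1807 in the 3 P5 samples. The value of #9 was 1.19 above its parental sample on the log2 scale. None of these 4 genes is in the list of 58 lysosome and autophagy genes, of which 54 were tested; under the drug 7 were called higher and 0 lower (2.57% and 2.73% of all genes), with medians of 0.57 in resistant and 0.22 in P12 against parental cells.

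Of 4 genes of intracellular signalling, Pag1 (chr3:9687479-9833679, minus strand) codes for a membrane adaptor that recruits CSK to restrain SRC kinases. It lay between 195.7 and 924.1 in parental samples (median 653.6) and between 1472 and 4258 in resistant samples (median 2467). P5 samples held 959.3 in #3, 591.6 in #7 and 176.6 in #9, below every resistant sample. In #9 both P5 and P12 (113.3) were below the parental value of 249.0. Dtx2 (chr5:135994800-136032872, plus strand), a Deltex ubiquitin ligase of the Notch pathway, ranged from 544.5 to 781.8 in parental and from 1243 to 8185 in resistant samples. It held 579.5 in #3, 472.5 in #7 and 631.1 in #9 in P5, slightly below the parental sample of the same line in all 3 (-0.14, -0.20 and -0.16). The log2 fold change of P5 against resistant samples was -2.32 ± 0.44 (SE; limma, adjusted p = 0.0102), and with the block it passed the threshold (-1.97, SE 0.33, adjusted p = 0.00671; 0.00592 to 0.315 over 18 alternatives). Dtx3, Dtx3l and Dtx4 were not called in resistant against parental cells (adjusted p from 0.563 to 0.584).

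Gnaz (chr10:74967177-75016907, plus strand), an inhibitory G protein alpha subunit, was low, with 5.97 to 25.3 in parental and 32.6 to 152.9 in resistant samples. P5 samples held 16.9 in #3, 21.4 in #7 and 17.9 in #9, below every resistant sample. Its relative Gnai3 had a log2 fold change of -0.61 in resistant cells (adjusted p = 0.028), and Gnai1, Gnai2 and Gnao1 were not called either. Rcan1 (chr16:92391953-92470867, minus strand), an inhibitor of the phosphatase calcineurin, had the smallest mean gain of the 23 (1.42 ± 0.41, SD, n = 6 lines). The groups overlapped, with 250.8 to 553.6 in parental and 503.3 to 1508 in resistant samples. P5 samples held 192.2 in #3, 678.7 in #7 and 540.8 in #9, and P12 of #4 lay below its parental sample, with 111.4 against 399.1.

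Among secreted and surface proteins, App (chr16:84949685-85173766, minus strand), the amyloid precursor protein, lay between 641.3 and 1882 in parental samples (median 1157) and between 2947 and 19148 in resistant samples (median 6148). The resistant sample of #10 (19148) was far above the next, #4 (8348). P5 samples held 1398 in #3, 3321 in #7 and 1552 in #9, and in #7 the level was 4562 in the resistant sample and still 3462 in P12, 0.88 above parental. Its relative Aplp1 just missed the rule. It met the gain and level conditions, with a log2 fold change of 4.87 in resistant cells (SE 1.01), which is a description. The fifth smallest of its distances between P12 and parental samples was 1.07. Aplp2 was not called (0.53, adjusted p = 0.284).

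Metrnl (chr11:121701544-121716306, plus strand), a secreted protein of the meteorin family, ranged from 93.0 to 366.5 in parental and from 277.8 to 2818 in resistant samples. The groups overlapped through #7, whose resistant sample held 277.8 and whose parental sample held 93.0. In P5 it held 107.7 in #3, 154.8 in #7 and 414.1 in #9, and in P12 it was within 0.54 of parental in all 6 lines. The log2 fold change of P5 against resistant samples was -2.72 ± 0.68 (SE; limma, adjusted p = 0.0412), and -2.44 ± 0.40 with the block (adjusted p = 0.00548; 0.00548 to 0.599 over 18 alternatives). Clec2l (chr6:38663069-38680864, plus strand), a C-type lectin-like surface protein, ranged from 3.08 to 46.8 in parental and from 12.6 to 317.4 in resistant samples, so the groups overlapped. It was the only gene of the 23 whose P5 sample stayed more than 1 above parental in all 3 lines (1.80, 1.02 and 1.36), and in #9 P5 (11.8) equalled the resistant sample (12.6) within 1 count.

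Cep126 (chr9:8076461-8134294, minus strand), a centrosomal protein needed for cilia, ranged from 35.1 to 116.9 in parental and from 72.2 to 1071 in resistant samples. In #3 its P5 sample (74.0) was as high as its resistant sample (72.2), whereas in #7 and #9 P5 held 70.9 and 266.4 against 342.1 and 1071 in resistant samples. Low levels limit what can be said of the last 3 genes. Cyp4f39 (chr17:32452723-32493320, plus strand), a fatty acid omega-hydroxylase known from skin, was listed at 0 in all 6 parental and all 6 P12 samples. In resistant samples it held 33.0 in #3, 37.9 in #4, 424.5 in #6, 6.10 in #7, 1.25 in #9 and 38.9 in #10, and in P5 it was listed at 0 in #3 and #7 and held 1.07 in #9. The value of #9 is below that of 3 reads, and 1 line, #6, made up most of the mean.

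Cacna1s (chr1:136052750-136119822, plus strand), the calcium channel of skeletal muscle, had at most 1.58 in parental, 1.66 in P5 and 0.95 in P12 samples, all below 3 reads. In resistant samples it held 792.9 in #3, 62.6 in #4, 9.35 in #6, 6.35 in #7, 1.20 in #9 and 102.2 in #10. The non-coding A730020E08Rik (chr6:61172293-61180810, minus strand) ranged from 5.64 to 18.2 in parental, 22.2 to 191.3 in resistant, 10.7 to 13.2 in P5 and 4.44 to 17.7 in P12 samples, so that every resistant sample lay above all others. It overlaps Ccser1 on the opposite strand, which was also at least 1 higher in resistant cells of 6 of 6 lines, and since it is not stated whether reads were assigned by strand, reads of the pair may not be told apart. The 23 genes, 22 of them coding for proteins, were spread over 13 chromosomes. Of their 45 nearest neighbours in the table, 3 were gained in all 6 lines too (Upk3b next to Dtx2, Srcin1 next to Arhgap23 and Gm20442 next to Ddr1). In the whole table, 265 of 34478 genes were gained in all 6 lines with a mean resistant value of at least 50. The neighbours did not have to reach that level, so the counts are not alike and nothing is read from them.

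The P5 samples, which had no part in choosing the genes, were compared with the other states in one limma fit of all 21 samples. The resistant, parental and P12 samples of this fit are the same that the rule used, and P5 and P12 samples of one line correlated at 0.732 to 0.806 in their deviations from the state means. The direction against resistant samples was thus largely set by the choice, and the shares of all genes beside the counts are given for scale and not as support. Against resistant samples all 23 log2 fold changes were negative, from -5.51 to -1.14 with a median of -1.89, where the median over all tested genes was 0.03. Cyp4f39 and Cacna1s, with parental, P5 and P12 values below 3 reads, passed the filter on low values only through resistant samples. By the threshold of the study 1 of the 23 was called lower, Ugp2, where 0.0881% of all genes were called lower. At an adjusted p below 0.05, 13 were called lower (0.793% of all genes), and all 23 had an unadjusted p below 0.05 (15.4% of all genes in either direction). With the cell line as a replicate block in the fit of all 21 samples, 5 were called lower (Ablim3, Dtx2, Fosl2, Metrnl and Ugp2). Of all genes 0.176% were. This fit adjusts for the line but still draws on resistant samples of lines without P5. With the block and lines #3, #7 and #9 only, 0 of the 23 were called.

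Counted line by line, 21 of the 23 (91.3%) were below the resistant sample in all 3 lines with P5, against 14.2% of all genes; the exceptions were Cep126 in #3 and Cacna1s in #9. All 3 P5 samples lay below all 6 resistant samples for 16 genes (69.6%), against 2.35% of all genes. A drop of at least 1 was seen for 20 genes in #3, 17 in #7 and 16 in #9 (87%, 73.9% and 69.6%), where 13.7%, 11.3% and 15.9% of all genes dropped as far. Among the 73 kept genes the shares were 58.9%, 72.6% and 69.9%. Since the rule asked for high values in all 6 resistant samples, nothing is read from the distance between these shares.

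Against parental samples, limma called 0 of the 23 in P5 (0.00518% of all genes higher and 0.0207% lower), with log2 fold changes from -0.58 to 0.97 and a median of 0.35. At an unadjusted p below 0.05, which 10.4% of all genes had, there was 1, Fuca2 (0.97, SE 0.34, adjusted p = 0.355), and the block fit called 0 as well. A p that misses the threshold does not show equal levels, and only 5 of the 23 fold changes were negative. Line by line, P5 lay within 1 of the parental sample for 18 genes in #3, 19 in #7 and 14 in #9, where 61%, 73% and 72.8% of all genes did. In #9 another 9 genes were more than 1 above parental, a share of 39.1% against 13.2% of all genes, while in #3 and #7 it was 4 genes each, 17.4% against 23.2% and 13.8%. Among the 9 were Cyp4f39 and Cacna1s, whose values in P5 of #9 lie below 3 reads, and without these low genes 7 of 21 were above (33.3%).

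Against P12 samples, limma called 0 of the 23 with and without the block and none had an unadjusted p below 0.05 without it, where 0.674% of all genes had one. The log2 fold changes ran from -0.93 to 0.61 with a median of 0.03. P5 and P12 of one line derive from the same resistant cells, and P5 lay within 1 of P12 for 22 genes in #3, 22 in #7 and 20 in #9 (87.9%, 86.4% and 87.4% of all genes).

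On a scale from 0 for the parental to 1 for the resistant sample of the same line, the median position of P5 over the 23 genes was 0.20 in #3, 0.26 in #7 and 0.26 in #9 (mean 0.242 ± 0.034, SD, n = 3 lines). Over the 21 genes with a resistant value of at least 10 in every line, thus without Cyp4f39 and Cacna1s, it was 0.242, 0.351 and 0.205. The closeness of the 3 lines therefore depended on these 2 low genes. For the 73 genes gained and kept in P12, the median was 0.76 in #3, 0.56 in #7 and 0.49 in #9. For 43 genes with the mirror pattern, at least 1 lower in all 6 resistant samples and back within 1 in P12 of at least 5 lines, it was 0.14, 0.02 and 0.09. These sets were chosen by P12 of the same lines, so their order is a description. The position is a share of the gain, and the gains differed. In #3, #7 and #9 the median gain was 6.44, 4.41 and 3.20 for the kept genes and 1.79, 2.04 and 1.84 for the 23. The median differences of P5 from resistant samples were alike, -1.47, -1.84 and -1.79 for the kept genes and -1.50, -1.50 and -1.39 for the 23. With P12 within 0.5 of parental, which leaves 4 genes, the mean position of P5 was 0.095, inside the range of the mirror genes. Single genes spread around the median, with a middle 50% of -0.01 to 0.29 in #3 and of 0.11 to 0.46 in #7.

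**Figure D4:**
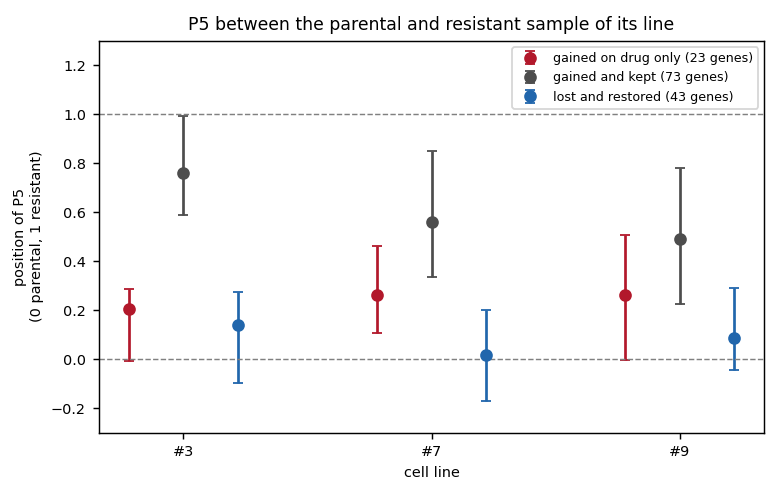
Position of the P5 sample between the parental (0) and the resistant (1) sample of its line on log2 values, in lines #3, #7 and #9. Points are medians over the genes of a set and bars the middle 50% of the genes. The 23 genes (red) lie between 0.20 and 0.26, the 73 kept genes (grey) between 0.49 and 0.76 and the 43 mirror genes (blue) between 0.02 and 0.14. The kept genes had larger median gains than the 23 in each line, and the position is a share of the gain.

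To see how far the pattern carried to a line that had not chosen it, the rule was applied to 5 lines and the chosen genes were looked up in the sixth. The other 5 lines chose 52 genes for #3, 39 for #4, 36 for #6, 67 for #7, 67 for #9 and 37 for #10. Of these, 63.5%, 79.5%, 100%, 43.3%, 41.8% and 70.3% were at least 1 higher in the resistant sample of the left-out line, against 15.1% to 20.9% of the 12956 genes with a mean resistant value of at least 50. The return was looked up in the same way. Among the chosen genes that were gained in the left-out line, P12 was within 1 of parental for 63.6% in #3, 64.5% in #4, 44.4% in #6, 79.3% in #7, 67.9% in #9 and 76.9% in #10. Among all genes gained in that line the same share was 35.5%, 44.7%, 43.1%, 65.4%, 62.6% and 56%. The genes compared here could be gained in that line alone, and the size of the gains was not matched, so the distance between the shares is a description. The share of carried-over gains was lowest in #7 and #9, and in #6 the share that returned was about that of any gained gene. Counted over all chosen genes, gained or not, P12 was within 1 of parental for 63.5% in #3, 66.7% in #4, 44.4% in #6, 76.1% in #7, 65.7% in #9 and 78.4% in #10. These shares were below those of all genes in all 6 lines (69.8%, 73.8%, 75.4%, 80.7%, 82.5% and 81.5%). Both conditions were met by 28.4% to 54.1% of the chosen genes and by 7.23% to 10.8% of all genes.

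**Figure D5:**
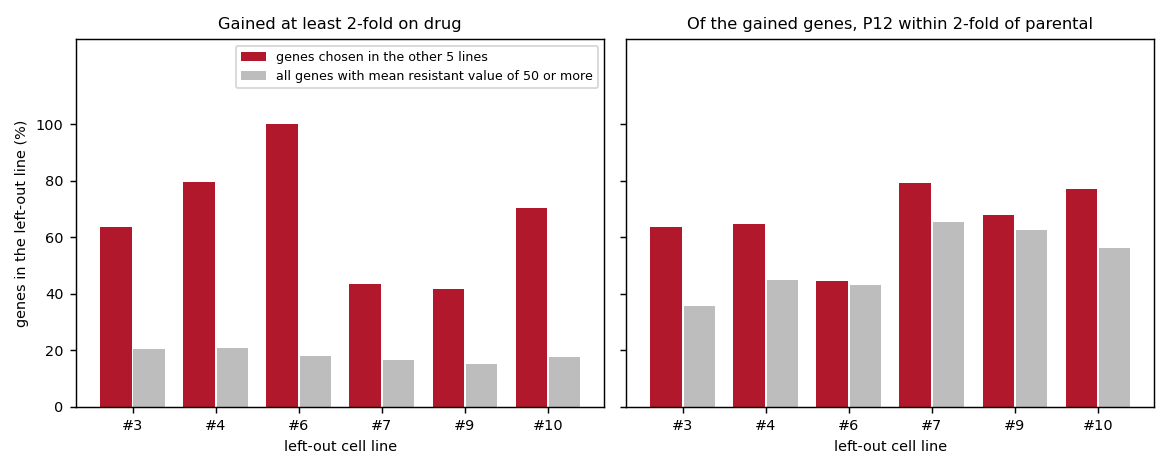
Shares of genes in each left-out line, for genes chosen by the rule in the other 5 lines (red) and for all genes with a mean resistant value of at least 50 (grey). Left, genes at least 2-fold higher in the resistant sample; right, of those, genes whose P12 sample was within 2-fold of parental, which differ least in #6 (44.4% and 43.1%).

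The edges of the rule were crowded. The smallest gains inside it were 1.00 for Rcan1 in #3, 1.01 for Ddr1 and 1.01 for Gnaz, and the genes next outside were Rtn1 (0.99), Atp6v0d1 (0.99) and Rhou (0.98). On the P12 condition the fifth smallest distance from parental was 0.99 for Zyx, 0.97 for App and 0.97 for Ssbp2, and outside it were 1190002N15Rik (1.02), Creb3 (1.03) and Aplp1 (1.07). On the level condition there was a wide gap, with Gnaz (83.7), A730020E08Rik (85.0) and Cyp4f39 (90.3) inside and 4930571N24Rik (21.5), 4933407E24Rik (15.3) and Gm39075 (13.8) outside.

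Only 2 of the 23 genes, Ddr1 and Fosl2, stand in any of the 24 gene lists used here. Relatives were therefore looked up for the members, 34 genes named after the members were known. Of the 33 that could be tested, 2 were called higher in resistant than in parental cells (Plod2 and Aplp1) and 3 lower (Fosl1, Fos and Fosb). Of all tested genes, 2.57% were called higher and 2.73% lower. The median log2 fold change was 0.50 over the 33 and -0.005 over all tested genes. The same 2 were at least 1 higher in all 6 lines. Aplp1 is also one of the genes next to the P12 threshold of the rule, so its call is a description.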

How the data were processed

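RNA-seq of 21 samples was analysed: 6 parental, 6 resistant, 3 P5 and 6 P12. Groups and lines came from the sample titles. The deposited table holds signal values, the DESeq2-normalized gene counts of the authors, made from TruSeq Stranded mRNA libraries by quasi-mapping with salmon 0.12 and DESeq2 1.18 on mm10, according to the submitters' processing notes and the methods. Raw counts were not recoverable, so count models were not run. The sequencer of each sample is not given in the sources used here, so no comparison within batches was possible, and batch and state cannot be told apart.

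Values were log2-transformed with a pseudocount of 1. Genes with at least 10 normalized counts in at least 3 samples (19300 of 34478) were tested with limma 3.58.1 (R 4.3.3; one fit, eBayes with trend, Benjamini-Hochberg), and a gene was called where its adjusted p was under 0.01 and its log2 fold change beyond 1 in either direction. The steps were tested on simulated data. Python 3.11.15 was used for all other steps. The numbers of reads were estimated from the spacing of low values.

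The lines pair the samples, since states with the same number are the same cell line; deviations of same-line samples from the state means correlated at -0.060 (a parental and a P5 sample) to 0.806 (a P5 and a P12 sample). Positions are from GENCODE M21. All 23 genes are named, with genes next to the thresholds, relatives and ERK output genes. The members, the 24 gene lists and the tests were chosen with earlier results of these data known. Alternatives were other pseudocounts, filters, scalings and bounds, the line as a block, and lines left out. Some items, among them an allele of the mice, are not reported here.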

Additional observations from a re-analysis of the deposited data

Results flagged for a closer look

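Among 67 groups of 6 samples (parental, resistant or P12 values of the 23 genes), 3 held a sample that stood apart from the others by more than Dixon's 95% limit, where chance alone marks about 1 in 20. Ssbp2 was 756 normalized counts in the parental sample of #9, with 172.2 to 268.7 in the other 5 parental samples. A730020E08Rik was 4.44 in P12 of #4, with 11.07 to 17.69 in the other P12 samples, a difference of only a few reads. Cacna1s was 0.947 in P12 of #4 and 0 in the other P12 samples, and all of these values lie below that of 3 reads.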

How the results depend on the processing

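The count of genes lower in P5 than in resistant samples was 1 and depended on the settings: 13 at an adjusted p below 0.05, 2 each with a pseudocount of 0.5, a pseudocount of 8 or a mean value of at least 100, 5 with the cell line as a replicate block, and 0 without a filter, without a trend, with 2 states only, and, chosen after seeing the data, with lines #3, #7 and #9 only or P5 of #3 only, each without and with the block. Leaving out 1 line at a time gave 0 to 1. Not one of the 23 fold changes turned its direction in these settings, and Ugp2 kept its call in 6 of 18. The counts against parental and P12 samples were 0 in every setting, the block included.

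The rule itself gave 4 genes with P12 within 0.5 (Cyp4f39, Dtx2, Metrnl and Rcan1), 6 with P12 within 1 in all 6 lines, and 36 to 67 when 1 line was left out. A pseudocount of 8 gave 29 genes, of which 16 were among the 23, and rescaling to the upper quartile gave 22, of which 19 were, without App, Ddr1, Rcan1 and Zyx. That rescaling moved the median of all genes between P5 and resistant samples from 0.03 to 0.13. The mean position of P5 was 0.30 with a mean resistant value of at least 100, 0.095 with P12 within 0.5, 0.167 with P12 within 1 in all 6 lines, and 0.229 to 0.315 with 1 line left out. The causes were not tested.

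With 1 culture per line and state, a difference between lines cannot be told apart from one between cultures. The p-values rest on 3 P5 samples. At this depth, values under about 4 normalized counts, such as those of Cacna1s and Cyp4f39 without the drug, are below 3 reads.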
